A study of Mus musculus with 8 samples.

Results

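Small nucleolar RNAs (snoRNAs), the related small Cajal body RNAs (scaRNAs) and their noncoding host genes were compared in cortex samples of adult mice. The members are the genes whose symbol starts with Snord, Snora, Scarna or Snhg followed by a digit and that had at least 10 counts over the 8 libraries. Of 54 genes with such a symbol, 9 were under that minimum, which left 45 of the 28732 genes in the deposited table. They are 22 box C/D snoRNAs (Snord), 8 box H/ACA snoRNAs (Snora), 3 scaRNAs and 12 Snhg host genes. The study compared 4 control libraries, from mice with floxed Tak1 alleles (Tak1fl/fl), with 4 knockout libraries, from mice that carried the same alleles plus Cdh5-CreER, a tamoxifen-inducible Cre recombinase under the promoter of an endothelial cadherin gene. All mice of both groups were given tamoxifen, and their age is labelled as postnatal day 90 on the samples, while the series text has 12 to 14 weeks. Recombination is aimed at endothelial cells, so most cells of a cortex sample keep the gene, and the levels are those of the whole tissue. In such bulk RNA, fewer cells of a type and less RNA per cell cannot be told apart.

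Box C/D snoRNAs guide the methylation of ribose in ribosomal RNA, and box H/ACA snoRNAs guide the change of uridine to pseudouridine. scaRNAs do the same work on spliceosomal RNAs in the Cajal body. In mammals most of these RNAs are not transcribed on their own. They are cut out of the spliced introns of host genes, many of which encode ribosomal proteins or translation factors, while Snhg genes are hosts whose spliced RNA is mostly noncoding. In the brain, the paternally expressed Snhg14 transcript carries the repeated Snord116 and Snord115 genes, and loss of the SNORD116 cluster is linked to Prader-Willi syndrome in humans.

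The reference sequences of the 4 box C/D members on which the results turn are shown with Snord37, a box C/D member whose fitted change had the opposite sign, so that the shared boxes can be compared. They are read 5′ to 3′ from the GENCODE transcripts, and capitals mark box C (NTGATGA, within 20 bases of the 5′ end) and box D (CTGA, within 20 bases of the 3′ end).
Snord87: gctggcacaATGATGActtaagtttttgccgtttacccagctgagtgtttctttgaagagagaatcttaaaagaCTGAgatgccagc
Snord116: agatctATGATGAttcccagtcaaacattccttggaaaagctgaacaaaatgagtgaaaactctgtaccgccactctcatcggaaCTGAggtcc
Snord104: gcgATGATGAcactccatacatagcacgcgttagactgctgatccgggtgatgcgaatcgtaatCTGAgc
Snord110: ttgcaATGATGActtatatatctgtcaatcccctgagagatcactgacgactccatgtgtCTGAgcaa
Snord37: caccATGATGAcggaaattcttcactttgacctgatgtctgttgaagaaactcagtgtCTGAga
All 5 hold the same ATGATGA and CTGA, so neither box separates Snord37 from the other sequences shown. Snord37 did not pass in edgeR (adjusted p = 0.616). Snord13, the other box C/D member with a fitted change under 0, had no box C in that window. Snord34 and Snord35a, with fitted changes above 0, had none there either. In GRCm38 they lie at chr1:9942463-9942549 (minus strand, in an intron of Snhg6), chr7:59675988-59676081 (minus, in an intron of Snhg14), chr11:106500993-106501062 (plus, inside no annotated gene on its strand), chr2:130275506-130275573 (plus, in an intron of Nop56) and chr10:81178950-81179013 (plus, in an intron of Eef2).

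Of the 22 box C/D members, 18 (81.8%) held both boxes in these windows, against 302 of 505 annotated small RNA genes of 60 to 110 bases (59.8%) and 0 of 505 when the other strand was searched. Leaving out Snord58b, which spans 66 bases, box C/D members spanned 64 to 238 bases with a median of 79. Box H/ACA members spanned 128 to 205 bases. For these, box H (ANANNA, between 35% and 65% of the length) and an ACA box 2 to 4 bases from the 3′ end were searched, and 7 of 8 (87.5%) held both. The share was 54.4% of 1010 annotated small RNA genes longer than 110 and up to 200 bases, and 3.07% of them on the other strand. Snora21, the H/ACA member of smallest p, and Snora17, the H/ACA member with a fitted change under 0, are shown with box H and ACA in capitals.
Snora21: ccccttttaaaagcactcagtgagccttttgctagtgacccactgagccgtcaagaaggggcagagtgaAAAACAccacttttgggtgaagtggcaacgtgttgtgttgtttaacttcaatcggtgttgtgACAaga
Snora17: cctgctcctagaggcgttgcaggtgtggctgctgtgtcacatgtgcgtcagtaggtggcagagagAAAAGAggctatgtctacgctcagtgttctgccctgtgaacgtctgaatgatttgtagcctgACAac
Snora21 lies in an intron of the ribosomal protein gene Rpl23 (chr11:97781639-97781775, minus strand), and Snora17 lies in no annotated gene on its strand (chr2:26639190-26639321, minus strand). Of the 33 small RNA members, 29 lie inside a named gene on the same strand, and none of the 29 overlaps an exon of that gene. A read over such a gene can come from the processed small RNA or from the unspliced intron, and the deposited counts do not separate the 2 sources.

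Each library held 13483354 to 17728963 counts assigned to genes. No label states that the 8 libraries come from 8 different mice, and the spread behind each p-value may therefore be technical. Small RNAs are a very small part of them: the 22 box C/D members together had 76 to 141 counts in a control library and 149 to 516 in a knockout library. RNA was purified on a column kit of a type that keeps short RNAs poorly, and the recovery of each small RNA was not measured. The targeted gene Map3k7, which encodes TAK1, had 40.02 ± 2.89 CPM (counts scaled to library size, SD, n = 4) in controls and 38.8 ± 3.16 in knockouts, and did not pass the test (log2 fold change -0.04 ± 0.11 SE, edgeR adjusted p = 0.843). Cdh5, the gene whose promoter drives the recombinase, passed as higher in knockouts (0.98 ± 0.24, adjusted p = 0.0377). Knockouts 3 and 5 stood apart from the other 6 libraries in Gm42418, a gene model that overlaps ribosomal RNA sequence. It took 0.669% and 2.31% of all counts there, against 0.0337% to 0.103% in the controls, 0.0443% in knockout 2 and 0.0382% in knockout 4. Choroid plexus markers summed to 11.2 to 184 CPM in controls and 371 to 533 CPM in knockouts, with 3 of 5 tested markers called higher and none at 0 over a group. Among the 15564 genes kept by edgeR's expression filter, 3.44% were called higher and 2.99% lower. Of 6 tested thalamic markers 2 were called higher (Shox2 and Rora) and none lower, and their sum was 191 to 232 CPM in controls and 257 to 290 in knockouts. The 4 tested microglial markers had 0 calls and a median log2 change of -0.54, and summed to 123 to 134 CPM in controls and 46.4 to 125 in knockouts. The part of these tissue markers and of ribosomal RNA in the results was not tested.

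**Figure D1:**
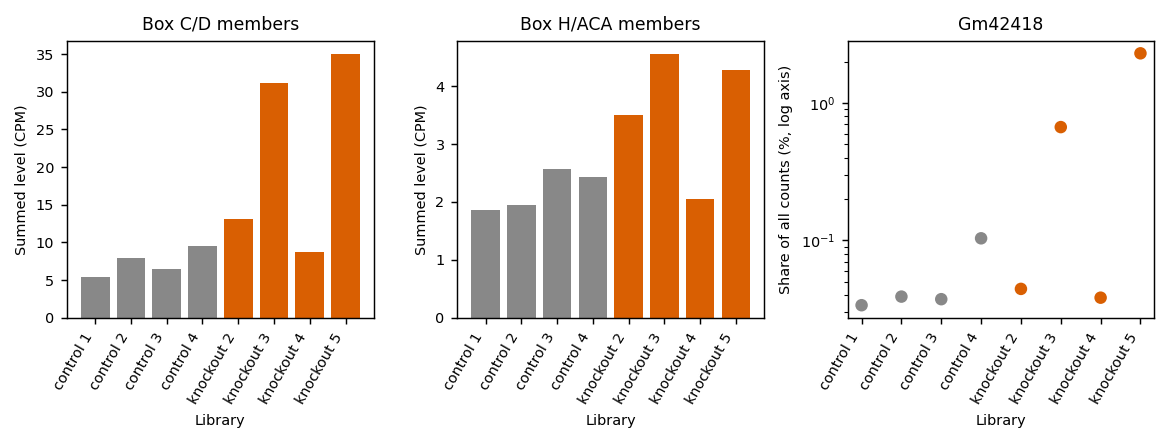
Summed level in CPM of the 22 box C/D members (left) and the 8 box H/ACA members (middle) in each library, and the share of all counts taken by Gm42418 in percent on a log axis (right); controls are grey and knockouts orange. Box C/D members summed to 31.1 CPM in knockout 3 and 35.02 in knockout 5, the same libraries in which Gm42418 stood at 0.669% and 2.31%.

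Several box C/D snoRNAs were higher in knockout cortex, and no member passed as lower. The fit that takes every gene with 10 counts in all covers all 45 members. In it 3 box C/D snoRNAs (Snord104, Snord87 and Snord110) and 1 host gene (Snhg1) passed as higher at an edgeR adjusted p of at most 0.05, against 2.65% of all 22168 genes fitted. None was lower in edgeR, against 2.28% of all genes, and 1 member had an unadjusted p under 0.05 in that direction. DESeq2, which called 5.51% of all genes lower, and limma voom called no member lower. The fit after edgeR's own expression filter tested 24 of the 45 members and called 2 higher, Snord87 and Snord116, against 3.44% of 15564 genes, and 0 lower against 2.99%. A member can pass that filter through its knockout libraries alone. Each count of members after it, that of DESeq2 included, is thus given as a description only. The minimum of 10 counts can also be reached through the knockouts alone, as in Snord104 and Snord110. Counts of members in the fit with 10 counts are thus a description too. DESeq2 called 5 of the 24 higher (Snord87, Snord116, Snhg1, Snord32a and Snhg12), where it called 6.21% of all genes higher. Limma voom called 0 of the 24 higher, where it called 3.08% of all genes higher. In the authors' deposited table, of 32 members with an adjusted p, 7 were higher at 0.05 and 0 were lower, where 5.34% of its 17023 genes with an adjusted p were higher and 4.91% were lower.

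In 6 members (Snord87, Snord116, Snord104, Snord49a, Snora62 and Snhg12) every knockout was above every control in CPM, as in 7.43% of the 22168 genes. In none was every knockout below, as in 5.76%. In raw counts the groups overlapped for Snora62 and Snhg12. Snora62 had 1 count in control 3 and 1 each in knockouts 2 and 3, so library scaling alone separates these. The calls depended on single libraries. Leaving out 1 library at a time from the fit of all members left 1 call without control 1, 2 or 3, 3 without control 4, 4 without knockout 2, 2 without knockout 3, 13 without knockout 4 and 1 without knockout 5. The shares of all genes called higher in the same fits were 1.07%, 0.751% and 1.31% without controls 1, 2 and 3, 2.72% without control 4, and 1.36%, 2.74%, 4.79% and 0.779% without knockouts 2, 3, 4 and 5. Snord104 was called in all 8 of these fits. Without knockouts 3 and 5 together, edgeR fitted 39 members and called 0, against 0.408% of 21094 genes called higher. In that edgeR fit 6 of the 39 members and 3526 of the 21094 genes had an unadjusted p under 0.05. The median fitted log2 change of the members was 0.92 with all libraries, where the median over all genes was 0.01. Without those 2 libraries it was 0.29, against -0.01 over all genes.

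Snord104, whose human counterpart guides methylation in the large-subunit ribosomal RNA, had 1, 1, 2 and 1 counts in controls 1 to 4 and 12, 13, 7 and 21 in knockouts 2 to 5. The groups do not overlap, and every knockout had at least 7 counts where no control had more than 2. The level was 0.0779 ± 0.0213 CPM (SD, n = 4) in controls and 0.880 ± 0.433 in knockouts. In edgeR this was a log2 fold change of 3.33 ± 0.62 SE (adjusted p = 0.00642). In the 8 fits that each leave out 1 library, its change stayed between 2.99 and 3.57 and its adjusted p between 0.00150 and 0.0429. Without knockouts 3 and 5 it was 2.69 ± 0.77 (adjusted p = 0.112).

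Snord87 is also a ribosomal RNA methylation guide in humans. It had 1, 7, 3 and 8 counts in the controls and 18, 64, 15 and 61 in the knockouts. Every knockout was above every control, and knockouts 3 and 5 were far above knockouts 2 and 4. The level rose from 0.304 ± 0.222 to 2.73 ± 2.06 CPM, a log2 fold change of 3.11 ± 0.70 SE (edgeR adjusted p = 0.0296, or 0.0279 after the expression filter). It was called in 4 of the 8 fits that leave out a library of the fit of all members, with adjusted p up to 0.0947, and limma voom did not call it. Without knockouts 3 and 5 the change was 1.64 ± 0.62 with an adjusted p of 0.204.

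Snord110 lies in an intron of Nop56, which encodes a core protein of box C/D particles, and guides methylation in the small-subunit ribosomal RNA in humans. It had 1, 0, 1 and 0 counts in the controls and 1, 12, 6 and 13 in the knockouts. Knockout 2 was level with the controls, so the groups overlap. With 2 counts over all controls and 32 over all knockouts, the ratio of its share of counts was 15.2, with an exact 95% interval of 3.87 to 130 that covers counting error only. The fitted log2 change was 3.77 ± 0.98 SE (edgeR adjusted p = 0.0341). It was called in 2 of the 8 fits without 1 library, those without knockout 2 and without knockout 4.

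Snord116, a brain-enriched box C/D snoRNA with no established ribosomal RNA target, had 1, 8, 9 and 9 counts in the controls and 23, 42, 17 and 105 in the knockouts. Every knockout was above every control, with knockout 5 highest. Its level was 0.418 ± 0.237 CPM in controls and 3.16 ± 2.81 in knockouts. After the expression filter it changed by 2.86 ± 0.70 SE on the log2 scale (edgeR adjusted p = 0.0397), and in the fit of all members it was 2.85 ± 0.72 with an adjusted p of 0.0533. It was called in 2 of the 8 fits of all members without 1 library, and its lowest change in them was 2.06, without knockout 5. Without knockouts 3 and 5 the change was 1.44 ± 0.56 with an adjusted p of 0.218. The counted gene has 63 annotated genes of the same length within 3 bases of its sequence, so how reads were shared among copies is uncertain. The 9 other copies with a line in the table summed to 0.719, 2.39, 1.64 and 2.56 CPM in controls and 3.27, 8.81, 2.93 and 15.3 in knockouts. These sums did not overlap between groups, but 1 copy, Gm23767, held 368 of the 564 counts. Only 1 of the 9 had every knockout above every control, as in 7.43% of all genes, and 0 of the 5 fitted were called. Since copies may share reads, the sums are not separate evidence for Snord116.

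**Figure D2:**
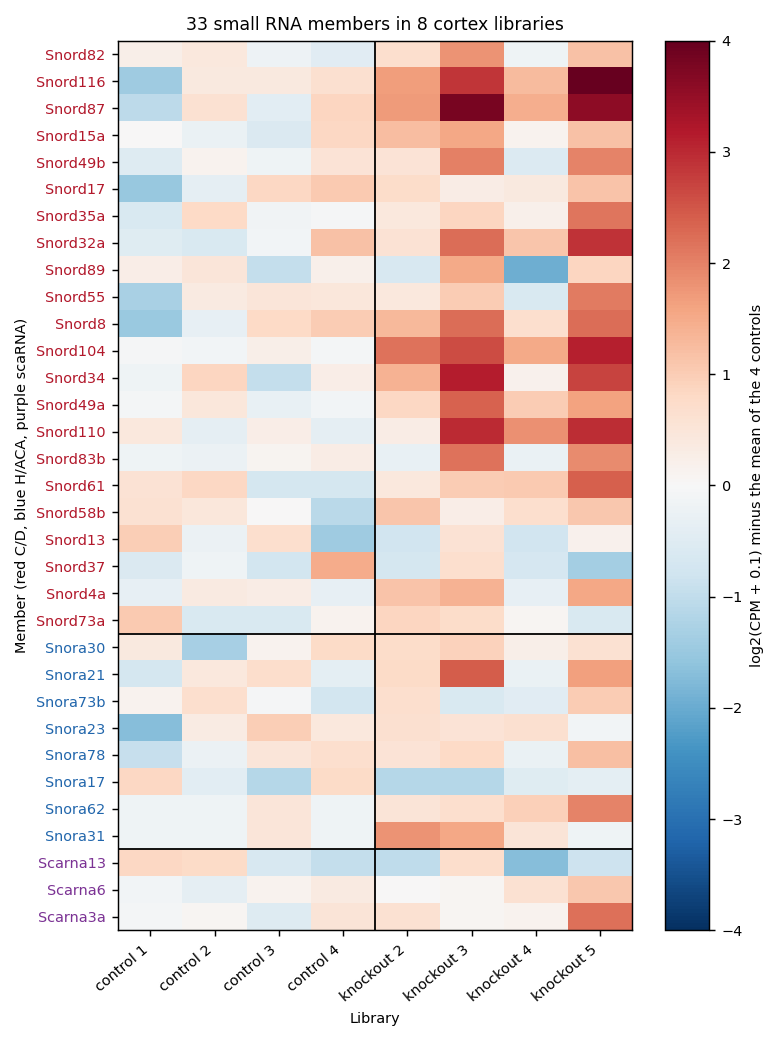
Level of each of the 33 small RNA members (rows, red names box C/D, blue box H/ACA, purple scaRNA) in the 8 libraries (columns), as log2(CPM + 0.1) minus the mean of the 4 controls. Red marks levels above the control mean. Among the 22 box C/D members 17 lie above every control in knockout 3 and 19 in knockout 5, against 10 in knockout 2 and 7 in knockout 4. Of all 22168 genes with 10 counts, 5744, 7141, 5882 and 6411 lie above every control in knockouts 2, 3, 4 and 5.

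Over the whole box C/D class the fitted log2 change was above 0 in 20 of 22 members, with a median of 1.53, while 51.5% of all genes in the same fit were above 0. Without knockouts 3 and 5 it was above 0 in 14 of the 18 members that could be fitted, with a median of 0.80, while 49.2% of all genes were. Box C/D members above every control numbered 10 in knockout 2, 17 in knockout 3, 7 in knockout 4 and 19 in knockout 5, out of 22. Of all 22168 genes, 5744, 7141, 5882 and 6411 lay above every control in knockouts 2, 3, 4 and 5. The summed level of the class was 5.47, 7.91, 6.46 and 9.51 CPM in controls 1 to 4 and 13.1, 31.1, 8.72 and 35.02 in knockouts 2 to 5. Knockout 4 lay below control 4, and knockouts 3 and 5 lay far above all other libraries.

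Snord32a, Snord34 and Snord35a lie in introns of the ribosomal protein gene Rpl13a and guide methylation of ribosomal RNA in humans. Snord34 had 1, 4, 0 and 2 counts in controls and 7, 21, 2 and 17 in knockouts, with a fitted log2 change of 2.74 ± 0.83 SE and an edgeR adjusted p of 0.0681. Snord32a had 2, 2, 4 and 10 counts in controls and 7, 20, 11 and 36 in knockouts (2.07 ± 0.63, adjusted p = 0.0714). In both, knockouts 3 and 5 were the highest libraries and the groups overlapped. Snord35a was at 1.12 ± 0.52 with an adjusted p of 0.216, and its highest library by far was knockout 5, with 37 counts.

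Snord49a and Snord49b share the noncoding host 2410006H16Rik. Snord49a had 2, 4, 2 and 2 counts in controls and 6, 16, 7 and 10 in knockouts, without overlap, and a log2 change of 1.97 ± 0.61 SE (edgeR adjusted p = 0.0679). Snord49b had 5, 10, 9 and 13 counts in controls and 15, 34, 6 and 37 in knockouts (1.38 ± 0.54, adjusted p = 0.150), and there knockout 4 lay among the controls.

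Snord82 lies in an intron of Ncl, the gene of the nucleolar protein nucleolin, and Snord15a in an intron of the ribosomal protein gene Rps3. Snord82 had 19, 25, 18 and 12 counts in controls and 32, 56, 17 and 40 in knockouts, a log2 change of 1.03 ± 0.39 SE with an edgeR adjusted p of 0.135. Snord15a had 11, 10, 9 and 22 counts in controls and 34, 33, 15 and 28 in knockouts (1.09 ± 0.41, adjusted p = 0.126). In both, 3 of the 4 knockouts were above every control and knockout 4 was not.

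Snord8, Snord61, Snord83b, Snord58b and Snord4a, in introns of Chd8, Rbmx, Rpl3, Rpl17 and Rpl23a, had fitted log2 changes of 1.69, 1.92, 1.82, 1.04 and 2.12 in that order. Their edgeR adjusted p lay between 0.139 and 0.493. Snord4a rests on 2 counts over the controls and 10 over the knockouts, a ratio of 4.73 with an exact 95% interval of 1.01 to 44.4. It reached the minimum of 10 counts only through the knockouts, so this ratio and its interval are a description. Snord55 was at 1.00 ± 0.63 SE (adjusted p = 0.396), and only knockouts 3 and 5, with 10 and 25 counts, lay above every control.

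Snord89, Snord17 and Snord73a were within 1 SE of 0, at 0.40 ± 0.70, 0.37 ± 0.50 and 0.50 ± 1.15. The members with a fitted change under 0 were Snord13 and Snord37. Snord13, which guides acetylation of small-subunit ribosomal RNA in humans and has its own promoter, had 6, 2, 6 and 0 counts in controls and 1, 4, 1 and 3 in knockouts (-0.55 ± 0.89, edgeR adjusted p = 0.787). Snord37 had 1, 2, 1 and 9 counts in controls and 1, 4, 1 and 0 in knockouts (-1.04 ± 1.01, adjusted p = 0.616).

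**Figure D3:**
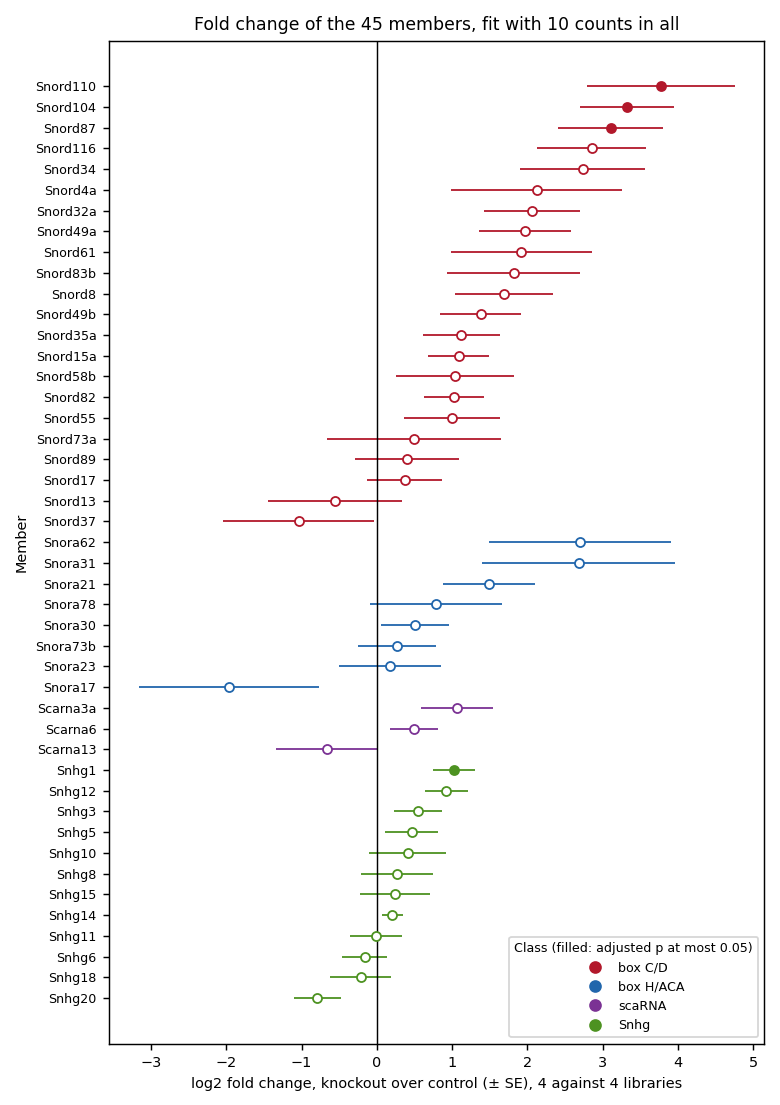
Log2 fold change of knockout over control with its SE for the 45 members, from the edgeR fit of all genes with 10 counts in all (4 against 4 libraries), grouped by class; filled points have an adjusted p of at most 0.05. The 4 filled points are Snord110, Snord104, Snord87 and Snhg1, and of the box C/D members only Snord13 and Snord37 lie left of 0.

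No box H/ACA member passed in edgeR in the fit of all members. There 2 of 8 had an unadjusted p under 0.05, as had 4714 of all 22168 genes. Of these 8, 7 had a fitted log2 change above 0, against 51.5% of all genes, with a median of 0.65. Their summed level was 1.87, 1.95, 2.57 and 2.43 CPM in controls and 3.499, 4.56, 2.05 and 4.28 in knockouts, so knockout 4 lay among the controls. Snora21 had 2, 7, 10 and 3 counts in controls and 10, 27, 4 and 17 in knockouts, a log2 change of 1.49 ± 0.61 SE with an adjusted p of 0.164. It was called when knockout 4 was left out (adjusted p = 0.0431) and in none of the other 7 fits without 1 library.

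Snora62, in an intron of the ribosomal protein gene Rpsa, and Snora31, in an intron of Tpt1, each had 1 count over the controls and 9 over the knockouts. The ratio of shares was 8.52 for each, with an exact 95% interval of 1.18 to 374, and neither passed in edgeR (adjusted p = 0.206 and 0.240). Snora17 went the other way, with 9 counts over the controls and 2 over the knockouts, a ratio of 0.210 with an interval of 0.0221 to 1.02. Snora73b, a member of the family that acts in pre-ribosomal RNA cleavage rather than as a modification guide, had 8, 14, 9 and 4 counts in controls and 15, 4, 6 and 17 in knockouts (0.27 ± 0.52, adjusted p = 0.831). Snora30, in Srcap, was at 0.51 ± 0.45, Snora78, in Snhg9, at 0.79 ± 0.88, and Snora23, in Ipo7, at 0.18 ± 0.68. All 3 overlapped between groups.

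Of the 3 scaRNAs none passed in edgeR, and 1 had an unadjusted p under 0.05, as had 4714 of the 22168 genes fitted. Scarna13, in an intron of Snhg10, had 528, 582, 253 and 163 counts in controls and 180, 458, 112 and 178 in knockouts. Libraries of both groups differed several-fold, with control 1, control 2 and knockout 3 high and the rest low, and the log2 change was -0.66 ± 0.68 SE (adjusted p = 0.661). Scarna3a, in an intron of the ubiquitin ligase gene Cop1, had 14, 18, 13 and 23 counts in controls and 29, 15, 20 and 77 in knockouts (1.06 ± 0.48, adjusted p = 0.222), and knockout 5 alone was far above the rest. Scarna6, in an intron of the autophagy gene Atg16l1, had 20, 19, 32 and 30 counts in controls and 27, 22, 42 and 50 in knockouts (0.50 ± 0.32, adjusted p = 0.399).

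Among the 12 Snhg genes 1 passed as higher in the fit of all members, where 2.65% of all genes did. A fitted log2 change above 0 was found in 8 of the 12, against 51.5% of all genes, with a median of 0.26. Snhg1, which hosts a series of box C/D snoRNAs, was at 2.52, 3.39, 2.85 and 2.02 CPM in controls and 6.59, 7.44, 2.75 and 5.50 in knockouts. Knockouts 2, 3 and 5 were above every control and knockout 4 was among them. The level was 2.69 ± 0.574 CPM in controls and 5.57 ± 2.04 in knockouts, a log2 change of 1.03 ± 0.28 SE with an edgeR adjusted p of 0.0407. After the expression filter the change was 1.04 ± 0.29 with an adjusted p of 0.0507. Of the 8 fits of all members that leave out 1 library, only the one without knockout 4 called it, with adjusted p otherwise up to 0.125.

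Snhg12, another host of box C/D and H/ACA snoRNAs, was at 1.87, 1.95, 2.57 and 1.96 CPM in controls and 2.80, 5.54, 2.63 and 5.16 in knockouts. In CPM the groups do not overlap, but knockouts 2 and 4 lay close to control 3. In raw counts they overlap, with 47 in control 3 and 45 in knockout 4. The log2 change was 0.92 ± 0.28 SE with an edgeR adjusted p of 0.0660, and DESeq2 called it (adjusted p = 0.0325). It was 0.37 ± 0.28 without knockouts 3 and 5.

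Snhg20 had the largest fitted change under 0 of the Snhg genes. It was at 17.3, 13.7, 6.68 and 9.24 CPM in controls and 7.70, 9.80, 4.56 and 5.23 in knockouts, with a log2 change of -0.79 ± 0.31 SE and an edgeR adjusted p of 0.172. The groups overlapped, with controls 1 and 2 highest. Snhg20 was the only member with an unadjusted p under 0.05 in the lower direction.

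Snhg11, which is transcribed in neurons, was at 428, 360, 229 and 408 CPM in controls and 374, 514, 363 and 175 in knockouts, and its log2 change of -0.01 ± 0.34 SE changes sign with the settings. Snhg14 was at 117, 130, 148 and 162 CPM in controls and 159, 180, 189 and 119 in knockouts (0.21 ± 0.14, edgeR adjusted p = 0.437). It runs antisense to Ube3a, and since the use of strand in counting is not stated, reads of the 2 genes in their overlap cannot be told apart. Snhg5 (0.46), Snhg3 (0.54), Snhg10 (0.41), Snhg8 (0.27), Snhg15 (0.24), Snhg6 (-0.16) and Snhg18 (-0.22) had fitted log2 changes with SE of 0.30 to 0.51 and adjusted p of 0.356 or more. In Snhg8 the knockouts split, at 1.90 and 1.22 CPM in knockouts 3 and 5 and 0.467 and 0.410 in knockouts 2 and 4, with the controls between at 0.657 to 1.15.

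**Figure D4:**
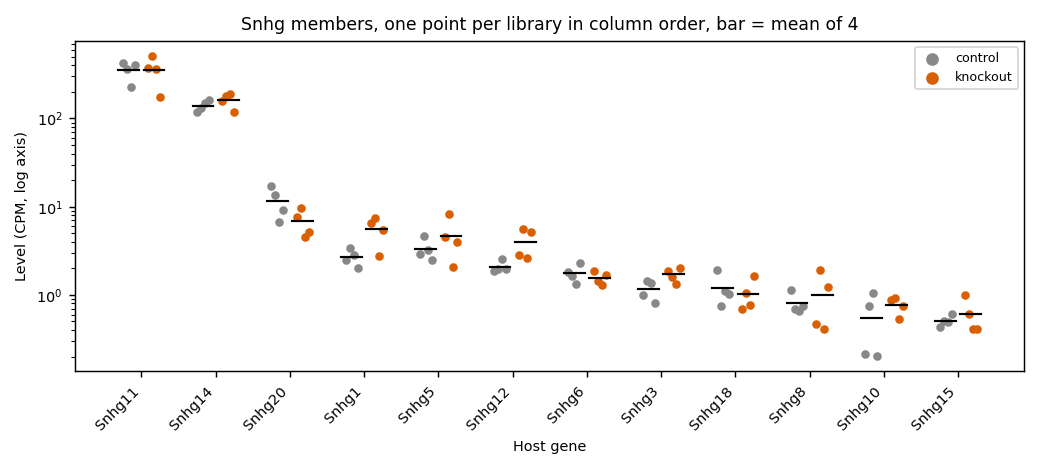
Level in CPM on a log axis of the 12 Snhg genes in each library, controls grey and knockouts orange, 1 point per library in the order of the deposited columns and a bar at the mean of 4. The clearest shifts are in Snhg1, from 2.69 to 5.57 CPM on average, and Snhg12, from 2.09 to 4.03, while Snhg11 stays at 356 in both groups.

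Small RNA members and the genes around them were then set side by side. In the fit of all genes with 10 counts, 28 small RNA members had a fitted host, and the small RNA's log2 change was above that of its host in 24 of them, in 17 of 19 for box C/D. The median log2 change was 1.25 over the small RNAs and 0.09 over their 25 distinct hosts, whose changes ran from -0.31 to 1.63. Some of the small RNAs, Snord110, Snord4a, Snora31 and Snora62 among them, reached the 10-count minimum only through the knockouts. That favours a higher change in the small RNA, so these counts of pairs and medians are a description. Of these 25 hosts 1 was called higher and 0 lower, near the 2.65% and 2.28% of all genes in that fit. The called host was 2410006H16Rik (log2 change 1.63 ± 0.38 SE, edgeR adjusted p = 0.0213). It was at 0.647, 1.19, 0.383 and 1.08 CPM in controls and 1.92, 3.95, 1.76 and 2.71 in knockouts, without overlap. Here host and small RNAs moved by similar amounts, 1.63 for the host, 1.97 for Snord49a and 1.38 for Snord49b. For Snord110 the host Nop56 was at 0.01 ± 0.14, for Snord87 the host Snhg6 was at -0.16 ± 0.30, and for Snord116 the host Snhg14 was at 0.21 ± 0.14.

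**Figure D5:**
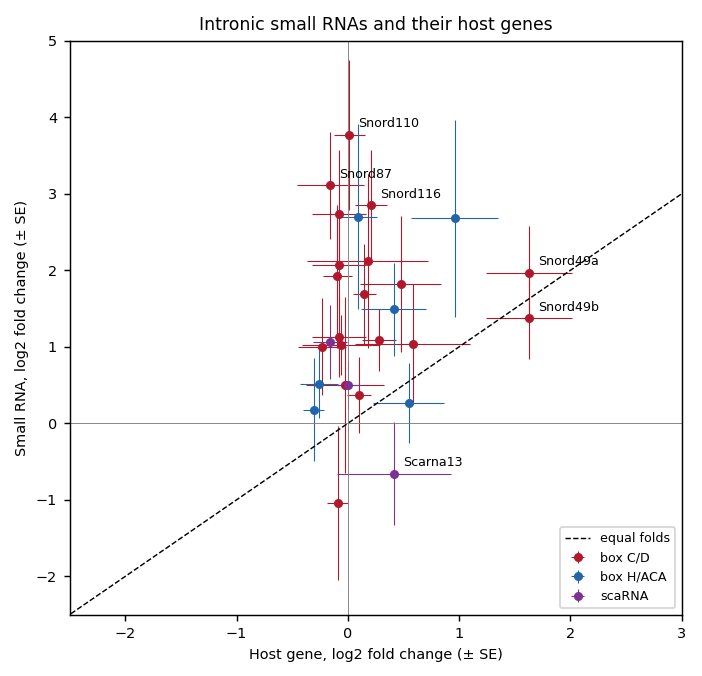
Log2 fold change of 28 intronic small RNAs (vertical) against that of their host genes (horizontal), each with its SE, from the edgeR fit of all genes with 10 counts in all; the dashed line marks equal changes. Of the 28 points 24 lie above the line, and Snord49a and Snord49b lie farthest to the right, with their shared host at 1.63. Some of the small RNAs reached 10 counts only through the knockouts, so the number of points above the line is a description.

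The ratio of small RNA to host was tested in each library for the 12 pairs in which both passed the expression filter. It was the log2 of the ratio of CPM with 0.5 added, compared with an exact 2-sided permutation test over the 8 libraries, which allows 70 arrangements and a smallest p of 0.0286. Snord82 to Ncl differed by 0.83 at that smallest p, from -8.46 ± 0.262 (SD, n = 4) in controls to -7.62 ± 0.229 in knockouts, with no overlap. Snord87 to Snhg6 differed by 1.91 (-1.52 ± 0.349 in controls, 0.389 ± 1.04 in knockouts) and Snord116 to Snhg14 by 1.53, both without overlap, but these 2 small RNAs passed the filter through the knockouts, which favours a higher ratio there, so both differences are a description. None of the 12 passed after adjustment over the 12 exact permutation tests, where the smallest adjusted p was 0.114, and 3 had an unadjusted p under 0.05. The ratios that were lower were Scarna13 to Snhg10, by 1.03, and Snord49b to 2410006H16Rik, by 0.45. Over all 28 pairs with 10 counts the ratio was higher in knockouts in 21, and 6 pairs reached the smallest p of the exact permutation test, but none passed after adjustment over the 28 (smallest adjusted p = 0.133). The other 3 of these 6 were Snord34 to Rpl13a (difference 1.02), Snord110 to Nop56 (0.88) and Snord61 to Rbmx (0.55). Their small RNAs reached the 10-count minimum only through the knockouts, which favours a higher ratio there. These differences, and the 21 of 28 pairs that include them, are thus a description. Snord110 had 1 count each in control 3 and knockout 2, at ratios of -5.28 and -5.27. Library scaling, the added 0.5 and the host level set that order. Other added values were tried for the 12 pairs only.

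Protein genes of the snoRNA particles did not pass. Of the 5 tested genes of box C/D particle proteins, which include the methyltransferase fibrillarin (Fbl), 0 were called in edgeR and their median log2 change was 0.13. Fbl was at 2.15 ± 1.07 CPM in controls and 2.44 ± 0.817 in knockouts. Of the 6 tested genes of box H/ACA particle proteins 0 were called, with a median of -0.26. Dkc1, the pseudouridine synthase of these particles, was at 21.3 ± 2.62 CPM in controls and 17.5 ± 2.33 in knockouts (-0.28 ± 0.14 SE, adjusted p = 0.234).

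Of 12 tested genes of particle assembly and the Cajal body, 0 were higher and 2 lower, where 2.99% of all genes were lower, with a median log2 change of -0.13. Ruvbl1, an ATPase of the complex that helps assemble the particles, fell from 14.2 ± 1.86 to 9.29 ± 1.70 CPM (-0.62 ± 0.17 SE, edgeR adjusted p = 0.0428). Tcof1, whose nucleolar protein treacle acts in the transcription of ribosomal RNA genes, was at 30.2, 25.3, 21.7 and 22.7 CPM in controls and 15.4, 17.01, 17.4 and 14.3 in knockouts (-0.64 ± 0.14, adjusted p = 0.0207). Among 28 genes of RNA polymerase I and ribosomal RNA processing 0 were higher and 1 lower, near the 2.99% of all genes called lower after the filter. This was Nop2, a ribosomal RNA methyltransferase gene, which fell from 16.0 ± 2.80 to 10.5 ± 0.840 CPM (-0.61 ± 0.15, adjusted p = 0.0356). In all 3 every knockout was below every control. Each lost its call without knockout 2, without knockout 5, without control 1 or 2, and without knockouts 3 and 5 together, and Ruvbl1 also without control 3.

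None of 18 tested genes of intron debranching and nuclear RNA trimming, of 37 listed host genes without a Snhg name (a list that does not hold 2410006H16Rik), of 7 nuclear long noncoding RNAs or of 5 genes of the Snrpn to Ube3a locus passed in edgeR. Their median log2 changes were 0.08, 0.10, -0.09 and 0.21. Gas5, a noncoding host of box C/D snoRNAs, was at 5.75, 5.84, 4.32 and 11.9 CPM in controls and 5.42, 23.8, 10.4 and 13.3 in knockouts (0.92 ± 0.48, adjusted p = 0.266). Zfas1, another such host, was at 1.94 ± 0.507 CPM in controls and 3.83 ± 1.43 in knockouts (0.98 ± 0.30, adjusted p = 0.0707).

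Other small RNAs of the nucleus and cytoplasm were set beside the snoRNAs. Of 7 tested, 0 passed, and their median log2 change was 0.72. The Y RNA gene Rny1 was at 3.31, 3.89, 3.28 and 6.68 CPM in controls and 5.89, 17.6, 4.74 and 27.4 in knockouts (1.69 ± 0.61 SE, edgeR adjusted p = 0.137), so that knockouts 3 and 5 were again the highest libraries. Rn7sk, the RNA that holds back an elongation factor of RNA polymerase II, was at 96.0, 93.5, 63.0 and 85.3 CPM in controls and 90.4, 135, 95.7 and 236 in knockouts (0.72 ± 0.31, adjusted p = 0.190). Of the 5 tested genes of ribosomal RNA signal, the mitochondrial mt-Rnr1 passed as higher (0.97 ± 0.17, adjusted p = 0.00999), in every knockout above every control.

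A further 95 genes that the GENCODE annotation classes as snoRNA or scaRNA, most of them under model names, have no matching symbol in the deposited table and also had 10 counts. In the same fit 76 of them had a log2 change above 0, against 51.5% of all genes, with a median of 1.02. Of the 95, 5 were called higher and 0 lower, where 2.65% and 2.28% of all genes were. In edgeR 29 of the 95 and 4714 of the 22168 genes had an unadjusted p under 0.05. In 11 of the 95 every knockout was above every control in CPM, as in 7.43% of all genes. The 95 summed to 51.3, 54.4, 48.4 and 66.8 CPM in controls and 65.4, 106, 64.4 and 123 in knockouts. Among the 5 called, all with every knockout above every control, were Snord70, at 0.111 ± 0.115 CPM in controls and 1.11 ± 1.05 in knockouts (3.21 ± 0.78 SE, edgeR adjusted p = 0.0288), and the gene models Gm25120 (2.61 ± 0.60) and Gm22728 (3.31 ± 0.90). Without knockouts 3 and 5, 44 of the 68 that could be fitted had a log2 change above 0, against 49.2% of all genes, with a median of 0.33. Of the 68, 0 were called, against 0.408% of all genes called higher. Among the 95 too, the minimum of 10 counts can be reached through the knockouts alone, as in Gm22728.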

How the data were processed

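Total RNA of the cerebral cortex was sequenced in 8 libraries, 4 control and 4 knockout, grouped by the genotype label. The submitters' processing notes list FastQC, HISAT, HISAT2, featureCounts and DESeq2 without versions, and the genome build GRCm38. The labels name a library kit made for ChIP sequencing, and whether counting used strand, and how reads with several matches were counted, is not given in the sources used here. The table numbers the knockouts 2 to 5 and the sample titles 5 to 8, so libraries are named by the table.

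The authors deposited raw whole-number counts. Beside them, the authors deposited a mean signal for every gene (counts over size factors, averaged), a log2 change with its error, a score (change over error) and the p-value columns of their comparison, which are named as in DESeq2. Of 29012 lines 280 repeats were removed, and 28682 of 28732 gene IDs matched GENCODE M21, from which positions, hosts and sequences were taken. A host is the named gene around a small RNA on its strand.

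Counts were scaled by TMM, kept by edgeR's filterByExpr (15564 genes) and compared by robust quasi-likelihood F tests in edgeR, with Benjamini-Hochberg adjustment over all genes fitted and a threshold of 0.05. That filter leaves out 21 members, so the report leads with the alternative that keeps every gene with 10 counts in all (22168 genes). CPM are TMM-scaled and given as mean ± SD. SE is the log2 change divided by the square root of F. The members, lists and tests were chosen with earlier results of these data known.

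The genes named by rule were Map3k7, Cdh5, members that passed with their hosts, the 5 highest and 3 smallest p of each class, the Snrpn to Ube3a locus and list members that passed. Other members are described since every member is accounted for. Snord104, Snord110, Snord34, Snord49a, 2410006H16Rik, Gas5, Zfas1, Fbl, Dkc1, Rny1, Rn7sk, Gm42418, Snord70, Gm25120 and Gm22728 were singled out after their values were seen. Alternatives were RLE and upper-quartile factors, other filters, DESeq2, limma voom and leaving out each library. Leaving out knockouts 3 and 5, removing ribosomal RNA genes before scaling, leaving out libraries in the 10-count fit and testing all 28 pairs of small RNA and host were chosen after seeing the data. On simulated data (15309 genes, 200 changed) the fit after edgeR's filter found 15.6% of genes changed 1.5-fold, 68.8% of those changed 2-fold and 98.4% of those changed 4-fold. Of the calls, 9.38% were false. Only genes that passed the filter were simulated, and libraries that stand apart like knockouts 3 and 5 were not. These rates therefore do not cover the fit with 10 counts or the members under the filter. The tools were edgeR 4.0.16, DESeq2 1.42.0 and limma 3.58.1 in R 4.3.3, and Python 3.11.15. Intervals and floors cover counting error only. The name of 1 host gene is not reported here.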

Additional observations from a re-analysis of the deposited data

Results flagged for a closer look

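In 4 of the 42 groups of 4 libraries checked, over the members named by rule, 1 library stood apart by Dixon's test. Chance marks about 1 group in 20. Snord32a was at 0.675 CPM in control 4, above 0.126 to 0.219 in the other controls. Snora23 was at 0.204 CPM in knockout 5, below 0.380 to 0.410 in the other knockouts, a difference of a few counts. Scarna3a was at 5.23 CPM in knockout 5, above 1.14 to 1.69 in the other knockouts. Snhg12 was at 2.57 CPM in control 3, above 1.87 to 1.96 in the other controls, which brings that control next to knockout 4.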

How the results depend on the processing

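No paired analysis was possible because the control and knockout titles carry different numbers, and the knockout columns carry yet other ones. Members called higher after edgeR's filter numbered 2, and 7 with no filter, 4 with 10 counts in all, 1 with 1 CPM in 4 libraries, 5 in DESeq2, 0 in limma voom and 0 without knockouts 3 and 5; leaving out 1 library gave 0 to 9. In the fit with 10 counts the 4 became 0 without knockouts 3 and 5 and 1 to 13 without 1 library. The median log2 change of the filtered members, 0.51, was 0.92 with no filter and with 10 counts, 0.67 in voom, 0.29 without knockouts 3 and 5 and 0.42 to 0.69 without 1 library. All genes called higher, 535, became 821 with no filter, 967 in DESeq2, 51 without knockouts 3 and 5 and 93 to 1012 without 1 library, and genes called lower, 466, became 745, 857, 11 and 35 to 1043. No member was called lower, and no pair of small RNA and host passed, in any alternative run. Ratios without 1 library allow no p under 0.0571, so these say nothing of stability. Of 438 values of 27 named genes, 368 kept direction and side of the threshold, 41 lost a call, 18 gained one and 11 changed sign, all with adjusted p above 0.7. Those were Map3k7 (0.00013 without knockout 2, and -0.093 to 0.00013 over the fits without 1 library), Snora73b (-0.11 without knockout 5), Snora23 (-0.20 without control 1), Snhg5 (-0.010 without knockouts 3 and 5) and Snhg11, at -0.0085 with no filter, -0.0087 with 10 counts, -0.056 in voom, and -0.16, -0.022, -0.21 and -0.0033 without control 3, knockout 2, knockout 3 and knockout 4, in a range of -0.21 to 0.23 over the fits without 1 library. None of the 7 named genes that passed kept its call in every alternative, and the cause was not tested. Depth is a limit for the small RNAs: 21 of 45 members were too low for the filter.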
